A study of Mus musculus with 2 samples.

Results

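Connexins are the proteins of gap junctions, and pannexins are their structural relatives. The 6 genes described here are the connexin genes Gjb2, Gjb5, Gjb6 and Gja1 and the pannexin genes Panx1 and Panx3, all known from epidermis, measured in the skin of Pnpla1-deficient newborn mice. They were chosen by the gene name printed for each probe on the arrays, which gave 6 of the 30133 genes, 6 probes and 15 spots. Set beside them are 13 other connexin and pannexin genes of the arrays.

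The study compared Pnpla1-/- (KO) with Pnpla1+/+ (WT) newborns to learn how loss of Pnpla1, a lipase-family gene needed for the barrier lipids of skin, alters gene expression. Both groups were C57BL/6N mice at postnatal day 0, with no treatment, and the WT newborns were littermates. The KO allele came from a knockout-first embryonic stem cell line whose inserted cassettes had been removed with flippase, and the methods treat these mice as global knockouts, not limited to keratinocytes. Each genotype was represented by 1 array, hybridised with RNA pooled from 6 newborns, so the spread between mice was not measured and no test was possible. The 2 pools also differed in genes that mark sex, with log2 differences of 1.12 for Xist and -2.19 for the Y-linked Ddx3y. The part of sex in any difference given here therefore cannot be told apart from that of genotype. The labels name the tissue skin and the design text also epidermis, and it is called skin here. Pnpla1 itself gave a signal of 579 in WT and 114 in KO skin, a log2 difference of -2.07. Whether this probe lies within the targeted part was not determined here, and a probe outside it would not check the genotype.

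Connexins assemble as hexamers into hemichannels, and hemichannels of neighbouring cells dock into gap junctions, through which ions and small molecules pass from cell to cell. Keratinocytes make several connexins that change with differentiation and wounding, and inherited mutations of GJB2, GJB6 and GJA1 cause human skin or hearing disorders. Pannexins share the fold but are not known to form classical gap junctions in tissue: they mostly open to the outside of the cell and release ATP, so the name gap junction fits the connexins among the 6 and not the pannexins.

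Each of the 6 genes was read through a single 60-base probe, and the first 30 bases of each probe are printed so that it is clear which sequence was measured. Other genes can have several probes, and the brightest stands for the gene. Positions are those of the whole probe on mm9, as the scanner files give them, and the exon or untranslated region was not determined here.

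Gjb2, chr14:57717629-57717688, minus strand: caagttgaaccattaccactatgccttatg

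Gjb6, chr14:57742226-57742285, minus strand: ttcattggacaatatacattgccgattgct

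Gjb5, chr4:127032053-127032112, minus strand: cacgtacgtgtgaatcactgctgttaggga

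Gja1, chr10:56109814-56109873, plus strand: ctacacattaactcagaacttgtattctga

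Panx1, chr9:14810250-14810309, minus strand: aggacctggggcttctagagagcaagcaca

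Panx3, chr9:37468048-37468107, minus strand: gacaaagccataagttgaatctttaggagt

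No run of 16 bases in the probes of Gjb2, Gjb6, Gja1, Panx1 or Panx3 was found, on either strand, in any other probe of the arrays. The probe of Gjb5 shared such a run with 1 probe, that of Rgs18.

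Gjb2 and Gjb6 were much brighter in KO skin, Gja1 and Panx1 were brighter by less than 2-fold, Gjb5 was at background in KO skin, and Panx3 was not well above background in either. Of the 5 members with a value, 2 passed 2-fold as higher and 1, a bound, as lower. Of the 22374 genes on the arrays that have a difference, 6.7% passed 2-fold as higher and 3.04% as lower. The median log2 difference of the 4 genes measured on both arrays was 1.74, against -0.01 for all 20680 such genes. That median leaves out Gjb5, and it was 0.77 over 5 members with Gjb5 at its bound and 0.63 over all 6 with no filter on dim probes. Differences are log2 of the KO signal minus log2 of the WT signal, each signal first divided by the 75th percentile of its array. Because the percentile was 2108 on the WT and 1734 on the KO array, equal raw signals give a difference above 0.

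Gjb2 encodes Cx26, a connexin that is scarce in resting interfollicular epidermis and abundant in proliferating epidermis, and that is mutated in keratitis-ichthyosis-deafness syndrome. Its signal was 16779 on the WT array and 90688 on the KO array. The KO signal was 6.57-fold higher after scaling, a log2 difference of 2.72. This placed Gjb2 at rank 181 from the top, with 99.1% of genes below it. Such ranks and shares are among the 20680 genes measured on both arrays.

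Gjb6 encodes Cx30, which can form mixed channels with Cx26 and is mutated in hidrotic ectodermal dysplasia. Its signal was 8259 on the WT array and 47531 on the KO array. The KO signal was 7.0-fold higher, a log2 difference of 2.81, at rank 168 from the top. The differences of Gjb2 and Gjb6 were closer to each other than the 0.204 that the error model of the scanner software gives for the log2 difference of either spot. That error covers the measurement of the spot and not the mice.

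Gjb5 encodes another connexin of keratinocytes. Its probe gave 100 on the WT array, well above background, and 5.75 on the KO array, not well above background. The KO signal was therefore at least 3.79-fold lower, where the bound sets the WT signal against the dimmest signal called well above background on the KO array. With a background correction that lifts dim signals (normexp), the log2 difference was -0.64 and Gjb5 no longer passed 2-fold, so this was the least secure of the 3 members beyond 2-fold.

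Gja1 encodes Cx43, the most widespread connexin, found in basal and spinous keratinocytes and in fibroblasts, vessels and hair follicles. It is the member with repeated spots, 10 on each array. They ranged from 4504 to 4987 with a median of 4748 in WT, and from 6184 to 7198 with a median of 6657 in KO skin. The ranges did not overlap, and the same-spot log2 differences lay between 0.72 and 0.81 with an SD of 0.03. Over all spots the KO signal was 1.71-fold higher, a log2 difference of 0.77, with 91.9% of genes measured on both arrays below it. The repeated spots measure the same pools again, so this spread is technical.

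Panx1 encodes a large-pore channel through which cells release ATP. Its signal was 5991 on the WT and 6901 on the KO array, 1.40-fold higher after scaling, a log2 difference of 0.49. Of the genes measured on both arrays, 85.8% lay below it. The difference was 0.05 when the arrays were centred on their spike-in probes, which lowers all genes alike.

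Panx3, a pannexin described in cartilage, bone and skin, gave 22.7 on the WT and 7.55 on the KO array. Both signals were not well above background, so no fold is given. Of the 5 markers of cartilage and bone, 3 were well above background on both arrays (Acan, Bglap and Ibsp), Col2a1 in WT skin only and Sp7 on neither.

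**Figure D1:**
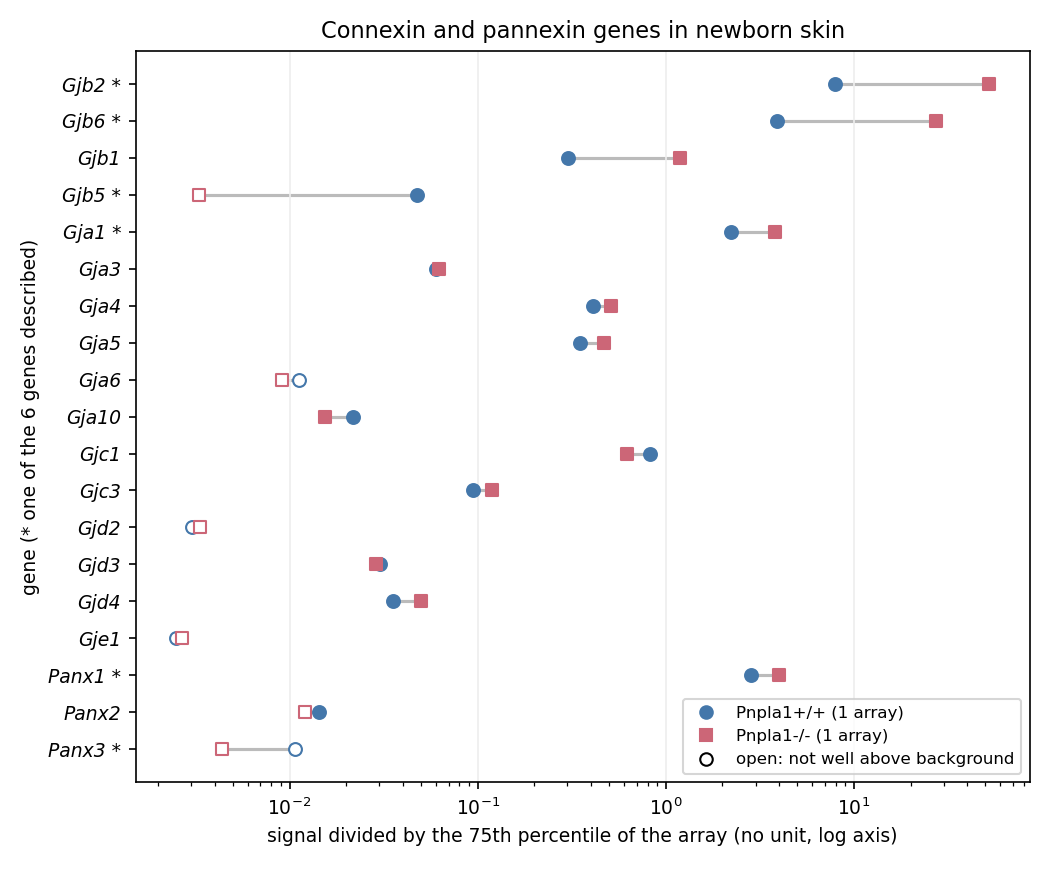
Signal on the WT array (circles) and the KO array (squares) for 19 connexin and pannexin genes, each divided by the 75th percentile of its array, on a log axis. Open symbols were not well above background, and positions should be compared within a row only, because probes differ in brightness. The longest gaps between filled symbols are those of Gjb2 and Gjb6, with KO to the right.

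Among the connexin genes reported here, those that differed by 2-fold or more were of the beta class (Gjb). Gjb1, Gjb2 and Gjb6 passed 2-fold as higher and Gjb5, by its bound and not with normexp, as lower in KO skin. None of the 5 alpha (Gja) genes with a difference did, nor any of the 4 of the gamma, delta and epsilon classes, which is near what the shares over all genes, 6.7% and 3.04%, give for so few genes. This is a count over single probes of 2 arrays, and the difference between the classes was not tested.

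Gjb1 encodes Cx32, known from liver and from the myelin of Schwann cells. Its signal was 640 in WT and 2068 in KO skin, 3.93-fold higher, a log2 difference of 1.97. Of the 2 Schwann cell markers reported here, Mbp differed by 1.34 on the log2 scale with its brightest probe and by 0.30 to 1.39 with its others, and Sox10 by -0.19. Gjb1 lies on the X chromosome, and the pools also differed in genes that mark sex: Xist gave 853 in WT and 1528 in KO skin, and the Y-linked Ddx3y gave 1863 and 336. The part of either in the value of Gjb1 was not tested.

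The vascular connexin genes Gja4 and Gja5 differed by 0.33 and 0.41 on the log2 scale, from signals of 861 and 739 in WT to 891 and 809 in KO skin. Endothelial markers differed by a median of 0.39. None of the 5 was beyond 2-fold, which is near what the shares over all genes, 6.7% and 3.04%, give for so few. The part of vessel content in the values of Gja4 and Gja5 was not tested. A second measured probe of Gja5 gave 0.14, and its remaining probe a bound of 0.80. Gjc1, a connexin of vascular smooth muscle and heart, gave 1742 in WT and 1084 in KO skin, a log2 difference of -0.40.

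The remaining genes measured on both arrays lay within 2-fold. Gja3, known from the lens, differed by 0.06, and Gja10, a connexin of retinal horizontal cells, by -0.49. Gjc3, a connexin of myelinating glia, differed by 0.34. Gjd3 differed by -0.08 and Gjd4 by 0.49. Panx2 had a bound of -0.20, and Gja6, Gjd2 and Gje1 stayed at background in both genotypes.

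**Figure D2:**
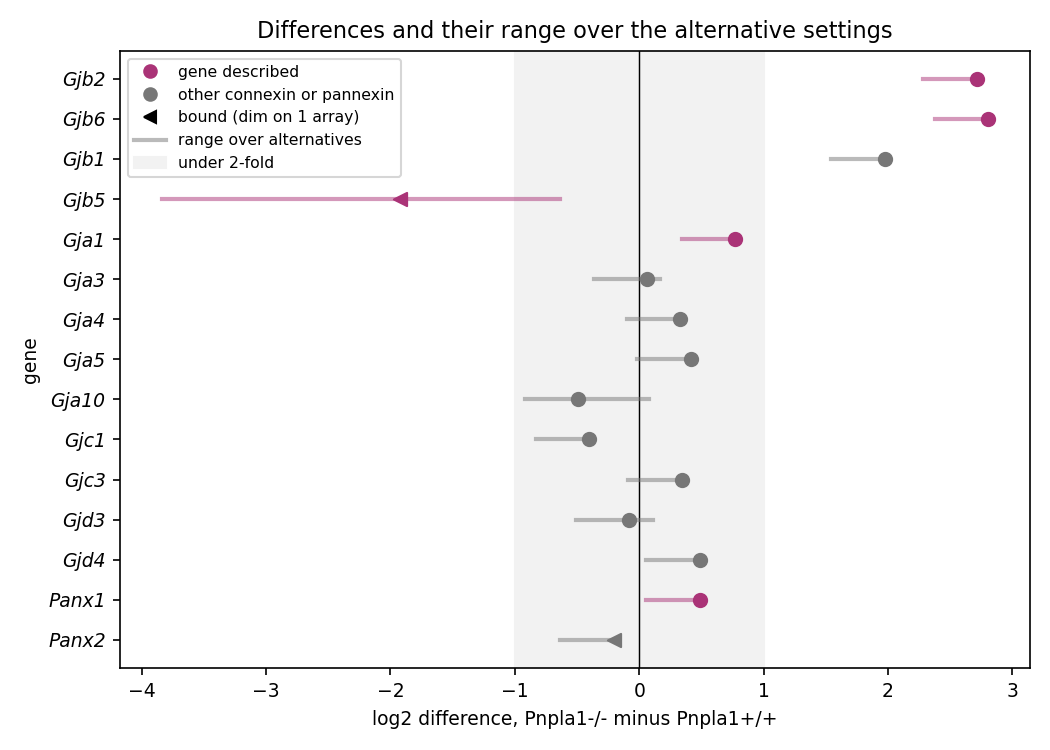
Log2 difference of KO minus WT for the 15 connexin and pannexin genes reported here that have one (points; triangles are bounds), with the range over the alternative settings (lines) and the span under 2-fold shaded. Gjb2, Gjb6 and Gjb1 stay to the right of the shading, while the line of Gjb5 reaches into it.

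**Figure D3:**
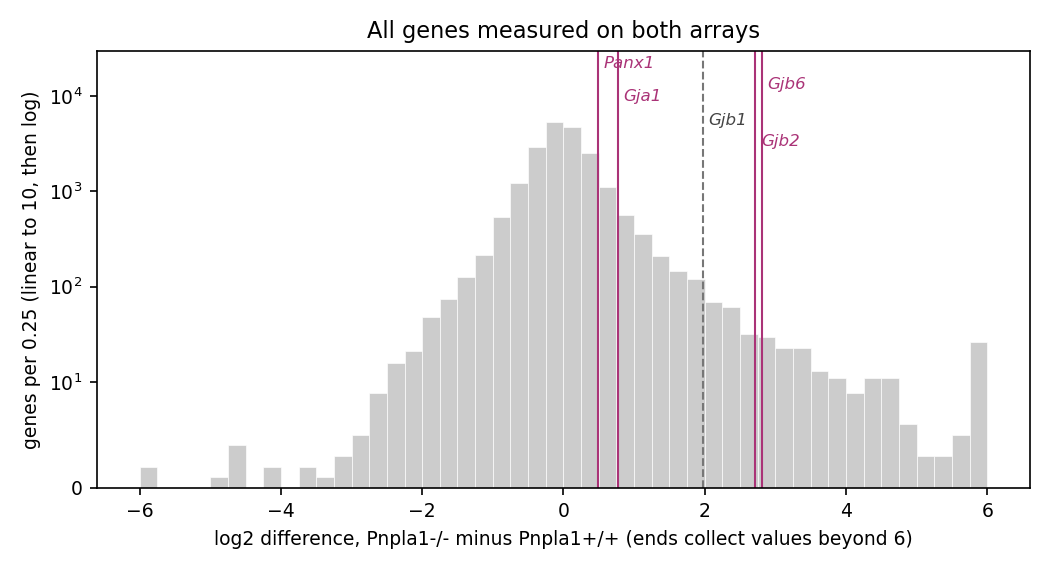
Number of genes in each 0.25-wide step of the log2 difference of KO minus WT, for the 20680 genes measured on both arrays, with values beyond 6 collected in the end steps and the count axis linear to 10 and logarithmic above. Solid lines mark Gjb2, Gjb6, Gja1 and Panx1 and a dashed line Gjb1. Gjb2 and Gjb6 stand in the thin upper tail, Gja1 and Panx1 on the shoulder of the main peak.

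The 3 members beyond 2-fold were also viewed beside their neighbours along the genome. On chromosome 14 the order is Gja3, Gjb2, Gjb6, and the probes of Gjb2 and Gjb6 start 24.6 kb apart on mm9. Both were over 6-fold higher in KO skin, while Gja3, whose probe starts 62.9 kb from that of Gjb2, differed by 0.06. Of the 12 flanking genes with a probe, 10 had a difference, none passed 2-fold, and they lay between -0.81 (Il17d) and 0.01. On chromosome 4 the probes of Gja4 and Gjb5 start 43.2 kb apart. Gjb5 was lower by its bound, and Gja4 differed by 0.33. Of 12 flanking genes given here, 10 had a difference, with a median of -0.03 over the 9 measured on both arrays. Tlr12, at 1.45, was the one beyond 2-fold. On both chromosomes these counts of flanking genes are near what the shares over all genes, 6.7% and 3.04%, give for so few genes.

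**Figure D4:**
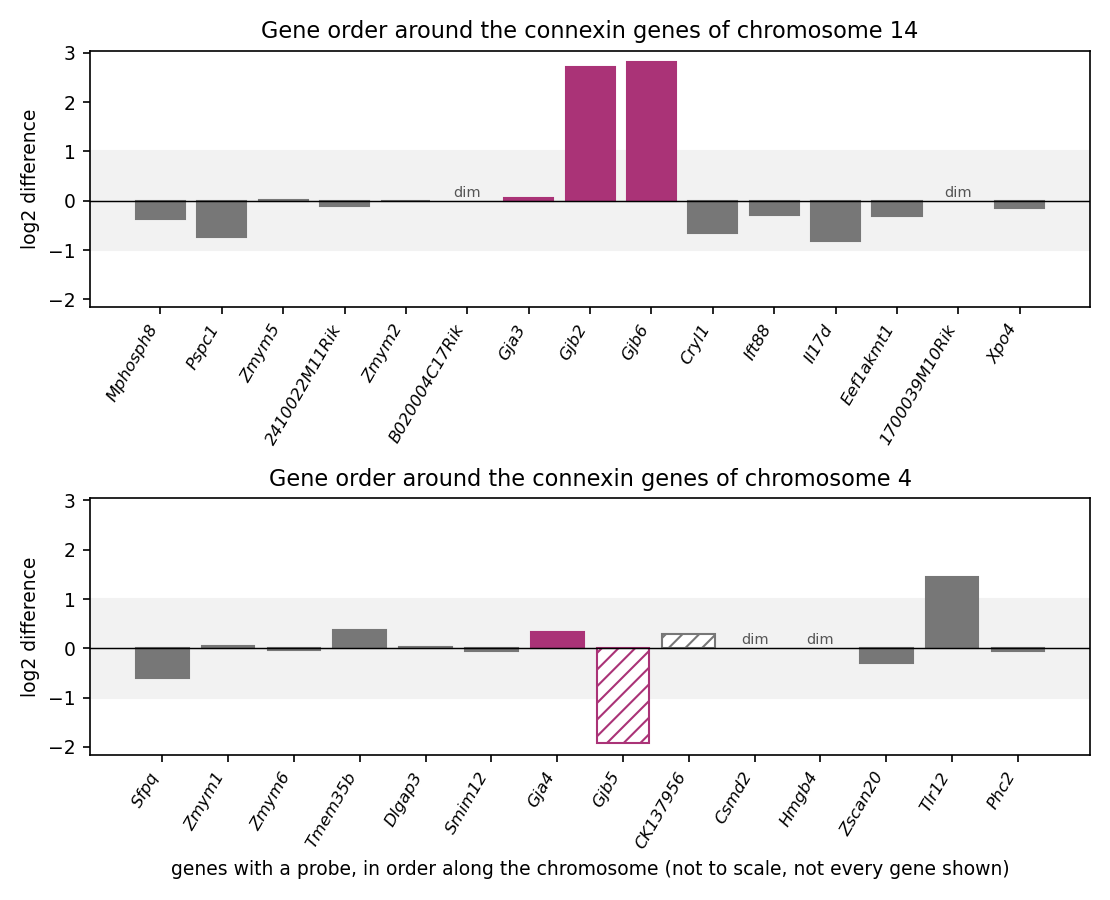
Log2 difference of KO minus WT for the connexin genes (coloured bars) and the flanking genes (grey bars) of chromosome 14 and chromosome 4, in order along the chromosome, not to scale and without every gene. Hatched bars are bounds, "dim" marks genes at background in both genotypes, and the shaded span is under 2-fold. The 2 tall bars of chromosome 14 are Gjb2 and Gjb6, and the lowest of chromosome 4 is the bound of Gjb5.

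Gjb2 and Gjb6 are neighbours with differences of like sign, so the 250 bases before the transcription start of the 3 members beyond 2-fold are shown, taken from RefSeq on GRCm38.p6. Of the 6 genes, 5 had an entry. They were searched on both strands for 5 motifs, and matches are in capitals. These were the AP-1 letters TGANTCA, the GC box letters GGGCGG, the CCAAT box, the TATA box letters TATAAA and the STAT letters TTCNNNGAA. No 2 matches overlapped in the printed stretches.

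Gjb2, chr14:57104703-57104952, minus strand: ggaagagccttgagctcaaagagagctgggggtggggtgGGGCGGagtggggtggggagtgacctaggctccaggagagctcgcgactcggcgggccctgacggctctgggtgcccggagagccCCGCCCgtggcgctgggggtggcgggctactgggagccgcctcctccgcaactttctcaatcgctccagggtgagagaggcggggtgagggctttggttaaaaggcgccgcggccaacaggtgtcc

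Gjb6, chr14:57133612-57133861, minus strand: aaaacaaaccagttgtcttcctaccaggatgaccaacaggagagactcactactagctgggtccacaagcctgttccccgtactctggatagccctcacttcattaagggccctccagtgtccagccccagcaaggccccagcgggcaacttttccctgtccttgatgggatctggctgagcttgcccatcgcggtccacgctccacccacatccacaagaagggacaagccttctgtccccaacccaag

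Gjb5, chr4:127358165-127358414, minus strand: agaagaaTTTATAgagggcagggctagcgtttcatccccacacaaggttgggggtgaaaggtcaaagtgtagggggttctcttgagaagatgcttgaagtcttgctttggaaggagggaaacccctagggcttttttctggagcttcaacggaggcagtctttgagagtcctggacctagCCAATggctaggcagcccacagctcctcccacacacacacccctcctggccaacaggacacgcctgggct

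The stretch of Gjb2 held 2 GC boxes, on opposite strands, and was 69.2% G and C, against a median of 52.4% over all promoters. The stretch of Gjb6 held none of the 5 motifs at 56.8% G and C, so these 2 neighbours shared no match here. That of Gjb5 held 1 CCAAT and 1 TATAAA. Among the members not shown, Gja1 held 1 AP-1 match, 19 bases before the start, and Panx1 1 CCAAT. Over all 32851 promoters, 32.7% held the GC box, 33.9% CCAAT, 12.4% TATAAA, 7.02% TTCNNNGAA and 6.75% the AP-1 letters.

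Genes that anchor, traffic or phosphorylate connexins were set beside them. Of 16 partners and kinases reported here, none was at least 2-fold higher and 1 was lower, with a median of -0.13. Those counts are near what the shares over all genes, 6.7% and 3.04%, give for a list of this size. The lower gene was Ccn3 (listed as Nov), a secreted protein known to bind Cx43, at 937 in WT and 274 in KO skin, a log2 difference of -1.49. Tjp1, a scaffold of tight junctions that binds the tail of Cx43, differed by 0.47. The genes nearest the median were Ubqln4 at -0.04 and Vcl, the adhesion protein vinculin, at -0.22.

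Receptors and enzymes for adenosine and extracellular nucleotides, among them the ATP that pannexins and hemichannels release, were set beside Panx1. Of 20 such genes, 6 were at least 2-fold higher and none lower, with a median of 0.35 over the 18 measured on both arrays, beside 6.7% and 3.04% of all genes. P2ry14, a receptor for UDP-sugars, gave 73.0 in WT and 496 in KO skin, a log2 difference of 3.04. Entpd3, an ectoenzyme that degrades extracellular nucleotides, gave 176 and 544, a log2 difference of 1.91. The ATP and UTP receptor P2ry2 gave 396 and 862, and the UDP receptor P2ry6 1107 and 2271, log2 differences of 1.40 and 1.32. The adenosine receptor Adora2b differed by 1.27, and by 0.81 with its second probe. Adora1, well above background in KO skin only, was the sixth, at least 2.36-fold higher. P2ry1 and Adora2a, nearest the median, differed by 0.34 and 0.37. With no scaling 4 of the genes passed 2-fold as higher and 1 as lower, and with quantile normalization 5 and 1. Centring on the spike-in probes, which lowers every difference by 0.43, left 2 higher and 1 lower and took this median below 0, though not relative to that of all genes.

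The cell content of the 2 pools may differ, and its part in these values was not tested. In bulk RNA fewer cells of a type and less RNA per cell cannot be told apart. Keratinocyte markers were present as the tissue label implies, with 5 of 5 basal and 4 of 4 suprabasal genes measured on both arrays. Their medians were 0.14 (Trp63, whose other probes gave -0.26 to -0.15) and 0.06, each turning negative under 4 alternatives. With no scaling and with spike-in centring, both stayed above the median of all measured genes, -0.29 and -0.44. With a mean over probes the basal median, -0.12, fell below that of all measured genes, -0.01. The summed scaled signals of basal genes went from 180 in WT to 210 in KO skin. Those of suprabasal genes went from 373 to 381, with Krt5 and Krt10 the brightest. Krt14 was higher at 1.35 and Krt15 lower at -1.67. Among suprabasal markers, Krt1 and Ivl, nearest the median, differed by 0.10 and 0.02.

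Keratins of stressed or regenerating epidermis differed most. Krt6b differed by 7.20, Krt6a by 6.96 and Krt16 by 4.13, and Krt17, the brightest in WT skin, by 0.65. Their median was 5.54 and their summed signal went from 45.5 to 411. These differences had the sign of those of Gjb2 and Gjb6, and their part in the connexin values was not tested.

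Hair follicle markers were lower in KO skin, as was Gjb5 by its bound, which rests on 1 dim spot and did not pass 2-fold with normexp. Of 5, none was higher and 3 were at least 2-fold lower, Krt35 at -1.33, Krt27 at -1.10 and Shh at -1.10, with a median of -1.10 and a summed signal from 71.1 to 37.2 (Krt71 brightest). Over all genes 3.04% were at least 2-fold lower. With normexp 2 of the 5 were, with a median of -0.94. With no scaling and with spike-in centring all 5 were, with medians of -1.38 and -1.53, beside 6.37% and 9.82% of all genes. The part of hair follicle content in the value of Gjb5 was not tested.

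Of the 4 leukocyte markers, 2 passed 2-fold, Lyz2 at 2.35 and Ptprc at 1.51, and Cd68 gave 0.84. Their median was 1.17, and their summed signal, with Itgam the brightest in WT skin, went from 7.48 to 9.54. Over all genes 6.7% passed 2-fold as higher, and the median was 0.89 with no scaling and 0.74 with spike-in centring. The brightest probe of Itgam gave -0.03 and its other probes 1.14 to 2.84. Leukocytes also carry P2ry14, P2ry2 and P2ry6, and their part in the purine receptor values was not tested. Of red blood cell markers, Alas2 differed by 1.32 and Hba-a1 by 0.83, and their summed signal went from 39.3 to 70.3.

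Markers of the other cells of skin had smaller median differences, in size, than stressed keratins and markers of hair follicle, leukocytes and red blood cells. They were not all smaller than those of basal and suprabasal keratinocytes. The median was -0.15 (Dcn) for 5 fibroblast genes, -0.09 (Ckm at -0.12, Des at -0.07) for 4 of skeletal muscle, 0.06 (Adipoq) for 3 of adipocytes, 0.58 for 2 of Schwann cells, 0.39 (Cdh5) for 5 of endothelium and -0.37 (Acan) for 3 measured genes of cartilage and bone. Of these genes Mbp alone passed 2-fold, which not all of its probes did. Over all genes 6.7% passed 2-fold as higher and 3.04% as lower.

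**Figure D5:**
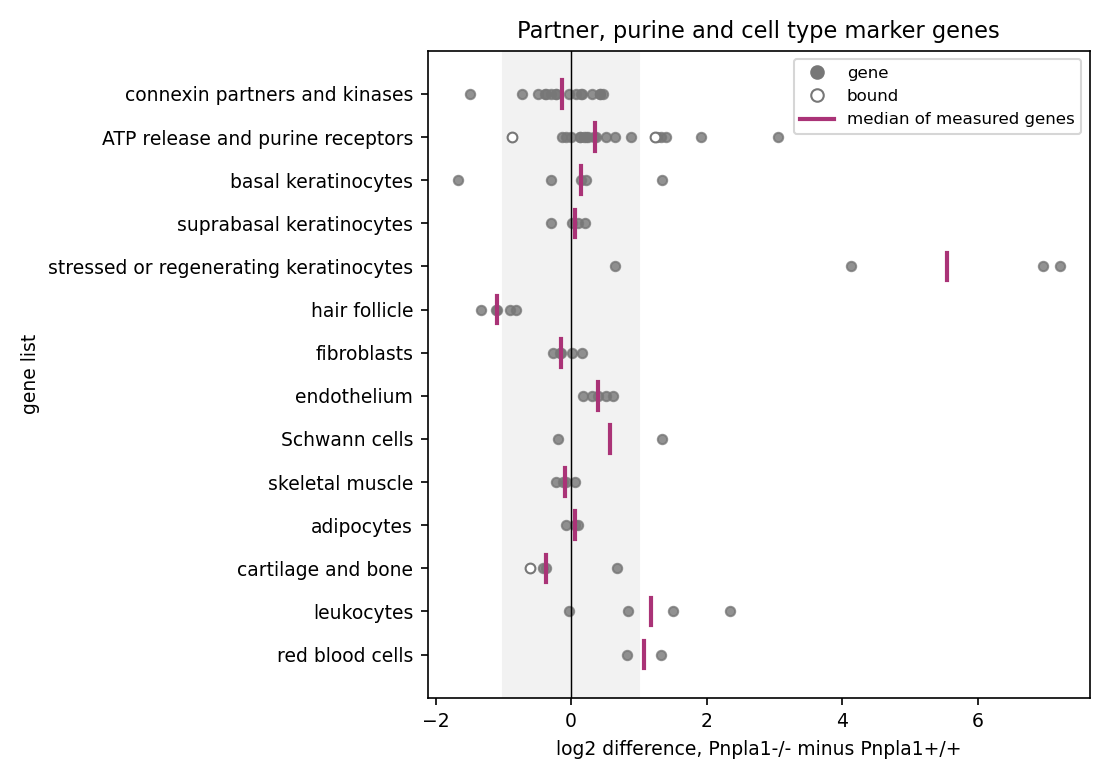
Log2 difference of KO minus WT for each gene of the lists (points; open points are bounds), with the median of the measured genes as a vertical bar and the span under 2-fold shaded. Keratins of stressed epidermis reach 7.20, hair follicle genes all lie below 0, and purine receptor genes spread to the right up to 3.04.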

How the data were processed

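Total RNA from newborn skin was labelled with Cy3 (200 ng per array) and hybridised to 1-colour Agilent mouse arrays, both on 1 slide. The authors scanned them, processed the scans with Feature Extraction 11.5.1.1 and deposited a linear intensity per spot after background subtraction and detrending, with flags. They also deposited a table of ratios, each the intensity divided by 1 constant per array (2109 for WT, 1734 for KO), used as an alternative.

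From the deposited intensities, the log2 signal of each spot was taken relative to the 75th percentile of its array, found over 43020 spots without the controls, with Python 3.11.15 (numpy 2.4.6, pandas 2.3.3; matplotlib 3.10.9 for plots). Spots flagged as outliers on either array (193) were left out, and repeated spots were averaged on the log2 scale. A gene is its brightest probe. Of 30133 genes, 20680 were well above background on both arrays, 1694 on 1 array with a bound, 7743 on neither, and 16 on 1 array with no fold, the bound being under 1. A bound, "at least N-fold", sets the bright signal against the higher of the dimmest signal well above background on the other array and the signal of the dim probe there. Names were matched to RefSeq (GRCm38.p6) for 31456 of 39429 probes, and coordinates of probes are those of the files, on mm9. The calculation was tested on simulated data in which only bright genes were changed. Both simulated arrays had the same background flags, so the rule for bounds was not exercised.

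With 1 array per genotype there is no p-value and no SD between mice, and precision is limited by having 2 arrays. For each of 385 probes spotted 8 or more times, the log2 SDs between its spots on the 2 arrays were combined as if independent. The median of these combined technical SDs was 0.09. It is not an SD of same-spot differences, which for Gja1 was 0.03. No saturated spot was found. The alternatives were other scalings, normexp in limma 3.58.1 (R 4.3.3, offset 50), flagged spots kept, no filter on dim probes, a mean over probes and a threshold of 1.5-fold.

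The genes, the lists and the rule for names were chosen with earlier results of these data known. Named are the 6 genes, the other connexin and pannexin genes, Pnpla1, and from each list the genes past 2-fold (the 5 largest where over 5) and those nearest the median. Other genes (Tjp1, Tlr12, Il17d, Adora1, the sex-linked genes and unchanged markers) were named after their values were seen. Some connexin genes, and some genes of the lists, are not reported here and are left out of the counts over those lists.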

Additional observations from a re-analysis of the deposited data

How the results depend on the processing

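Of the 6 genes, Gjb2 and Gjb6 stayed beyond 2-fold and Gja1 and Panx1 within it under all 9 alternatives that change the values, with log2 differences of 2.29 to 2.72, 2.38 to 2.81, 0.34 to 0.77 and 0.05 to 0.49. Past 2-fold, 6.7% of genes were higher (1499) and 3.04% lower (681) as reported. With no scaling these were 4.47% (998) and 6.37% (1424), and the median of the 4 measured members was 1.46 in place of 1.74. Centring on the 8 spike-in probes, which were 0.43 higher on the KO array, gave 3.73% (827) and 9.82% (2178) and a median of 1.31. By the construction of these alternatives every difference moves by the same amount. The share of higher among genes past 2-fold was 68.8% as reported, 41.2% unscaled, 27.5% with spike-in centring and 58.8% with quantile normalization. With normexp, 4.34% (960) were higher and 1.45% (321) lower, and 0 members were lower, because Gjb5 gave -0.64. With no filter on dim probes, 10.1% of 30133 genes were higher and 3.67% lower, 2 members (Gjb5 and Panx3) were lower and the median was 0.63, since dim probes then count. At 1.5-fold, 13.8% (3092) were higher and 9.35% (2092) lower, and Gja1 joined the higher members, making 3. Median scaling, quantile normalization, the deposited ratios, the mean over probes and keeping flagged spots left these counts within 1.5 times. Gjb1, Gjb2, Gjb5, Gjb6, Gja1 and Panx1 kept their sign under these alternatives. Small differences changed sign, Gja3 under 4 and Gja4, Gja5, Gja10, Gjc3 and Gjd3 under 1 each, as did the medians of basal, suprabasal and adipocyte markers under 4 each and of endothelium and the purine genes under 1. No paired analysis was possible because each genotype has 1 array, so no replicate could be left out and no slide term could be fitted. Signals under about the background limit (Panx3, Gjb5 in KO skin) have no order.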

Other observations

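Cnst, whose protein (consortin) is known to bind connexins and to help carry them to the cell surface, was outside the lists and was looked up for that role. Its signal was 1806 in WT and 894 in KO skin, a log2 difference of -0.73, 1.66-fold lower and so within 2-fold after scaling. The unscaled signals lay just over 2-fold apart, so this call depends on the scaling.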
